A study of Mus musculus with 6 samples.

Results

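The T cell receptor complex and the proteins that act first when it is engaged were followed in CD4+ T cells of the mouse that had been activated under Th1 conditions with or without ALX-5407, which inhibits GlyT1, a transporter of glycine. The members were 9 genes taken by name from the gene count table, namely Cd3d, Cd3e, Cd3g, Cd247, Cd4, Lck, Zap70, Lat and Lcp2, of 54532 genes listed. All 9 passed the filter on low counts and were among the 15938 genes tested. CD4+ T cells were selected with magnetic beads, by removal of other cells, from spleens of male C57BL/6 mice aged 6 to 8 weeks. They were activated on plates coated with an antibody to CD3 epsilon, with an antibody to CD28 and with IL-2, IL-12 and an antibody to IL-4, which direct cells toward Th1. The 3 Th1 libraries came from cultures kept for 72 h with vehicle, and the 3 ALX-5407 libraries from cultures given 500 nM of the compound, also labelled 72 h, although a shorter exposure appears in the methods. The labels call the libraries of a group biological replicates without saying whether the cultures came from separate mice, so the p-values measure the spread among cultures.

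Engagement of the T cell receptor by peptide and MHC is passed inward by the CD3 gamma, delta, epsilon and zeta chains, whose cytoplasmic tails carry tyrosine motifs. The kinase Lck, carried by the coreceptor CD4, phosphorylates these motifs, Zap70 binds to them, and activated Zap70 phosphorylates the adaptors Lat and Lcp2 (SLP76). Lat and Lcp2 then gather phospholipase C gamma, Vav and other proteins, from which calcium and Ras signalling start.

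Total counts were 33432304, 32518060 and 30801753 in Th1 replicates 1, 2 and 3 and 34735568, 36727788 and 34142475 in the ALX-5407 replicates. The members had between 4153 and 22031 counts in a library. Counting error at the lowest count of a member was 0.787% to 1.55%, beside coefficients of variation in a group of 2.17% (Lcp2 with ALX-5407) to 20.1% (Cd3e in Th1 cells), so that it was not small against the narrowest of these. Among the Th1 libraries, replicate 3 was the farthest from the others. Across genes, its log-transformed values had Pearson's r of 0.994 and 0.993 with replicates 1 and 2, which had 0.996 with each other, and its chi-square per degree of freedom was 18.4 and 22.3 against 10.5 for that pair. ALX-5407 replicate 3 stood apart from its group in the same way, with 12.9 and 11.5 against 5.58 for the other pair. All libraries were kept, and calls of members and of other named pathway genes that depend on either replicate 3 are also given without it.

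The libraries held the transcripts of CD4+ T cells. Cd4 stood at 459.9 to 703 CPM (CPM are counts relative to the size of the library, scaled by the TMM method), while Cd8a stood at 1.47 to 4.29 CPM and Cd8b1 at 5.24 to 5.85 CPM. The Th1 gene Il12rb2, a chain of the IL-12 receptor, was present at 446 to 511 CPM with overlap of the groups. Tbx21, which encodes the transcription factor T-bet, had 85.8, 77.7 and 81.5 CPM in Th1 cells and 107, 98.9 and 105 CPM with ALX-5407. The groups of Tbx21 were separate, and its log2 fold change was 0.34 (edgeR adjusted p = 0.000941). Of 6 Th1 genes listed, 2 were higher and 2 lower at an edgeR adjusted p under 0.05. The shares over all genes tested were 24.5% higher and 23.2% lower. Besides Tbx21, Hlx was higher, with a log2 fold change of 1.81 (edgeR adjusted p = 7.74e-09). Stat4 had -1.16 (edgeR adjusted p = 5.55e-08) and Il18r1 -0.76 (edgeR adjusted p = 1.2e-06), so changes larger than that of Tbx21 went both ways. Hlx, Stat4 and Il18r1 were named after their values were seen.

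With ALX-5407, 1 of the 9 members was higher at an adjusted p under 0.05 (Lcp2), 4 were lower (Cd3d, Cd3g, Cd4 and Zap70) and 4 passed in neither direction (Cd3e, Cd247, Lck and Lat). Of all genes tested, 24.5% were higher and 23.2% were lower by the same rule. Every change was moderate, and 0 members passed both an adjusted p under 0.05 and an absolute log2 fold change of 1, which 3.36% of all genes passed upward and 6.68% downward. That count was 0 in edgeR, DESeq2 and limma-voom alike, while at an unadjusted p under 0.05 edgeR and limma-voom had 1 member higher and 4 lower and DESeq2 had 1 and 5. The libraries of both groups did not overlap for 1 member that was higher and 4 that were lower, against 28.4% and 27.1% of all genes tested. The median log2 fold change of the members was -0.23, beside 0.0053 for all genes tested, and their median absolute change was 0.35, beside 0.36. In such bulk samples, fewer cells that express a gene and less RNA in each cell cannot be told apart.

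**Figure D1:**
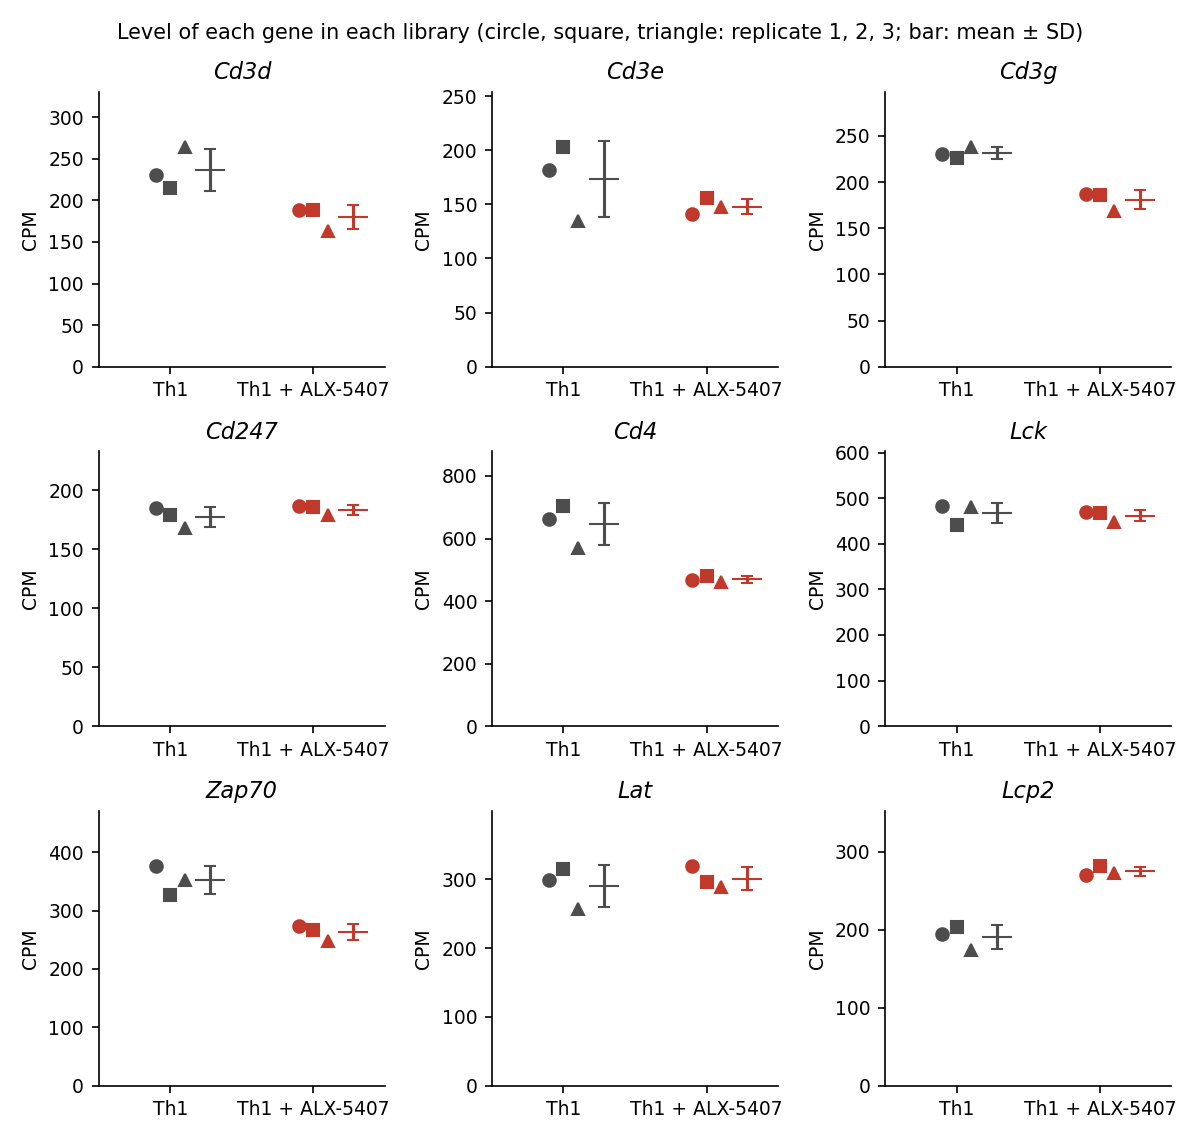
Level of each of the 9 genes (CPM, axes from 0) in the 3 Th1 libraries (grey) and the 3 ALX-5407 libraries (red), with the mean and SD of each group beside the points. Cd3d, Cd3g, Cd4 and Zap70 lie lower and Lcp2 higher in the ALX-5407 libraries with no overlap, and Th1 replicate 3 (triangle) is the lowest Th1 point for Cd3e, Cd4, Lat, Lcp2 and Cd247.

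Among the CD3 chains, the genes of the gamma and delta chains fell together. Cd3g (ENSMUSG00000002033), which encodes the gamma chain that pairs with epsilon, lies on the - strand of chromosome 9 at chr9:44969572-44980431 (GRCm38). It had 229.9, 226 and 238 CPM in Th1 replicates 1, 2 and 3 and 187, 186 and 169 CPM in the ALX-5407 replicates. All ALX-5407 libraries lay below all Th1 libraries, and the Th1 values were close to each other. The means were 231 ± 6.28 and 181 ± 10.4 CPM (SD, n = 3 each), and the log2 fold change was -0.35, with a standard error of 0.0708 and an adjusted p of 0.000622 by the quasi-likelihood F test of edgeR with Benjamini-Hochberg adjustment over all genes tested.

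Cd3d (ENSMUSG00000032094), the gene of the delta chain, lies on the + strand at chr9:44981786-44987339 and reads away from Cd3g, with 1355 bases between the starts of the genes. Its values were 230.2, 215 and 264 CPM in Th1 cells and 188, 188 and 163 CPM with ALX-5407. Again the groups were separate, with Th1 replicate 3 the highest library and ALX-5407 replicate 3 the lowest. The mean went from 236 ± 25.4 to 179.9 ± 14.5 CPM (SD, n = 3 each) with a log2 fold change of -0.39 (standard error 0.0861, edgeR adjusted p = 0.00127). The ratio of Cd3d to Cd3g counts, which needs no scaling between libraries, was 1.00, 0.951 and 1.11 in Th1 cells and 1.00, 1.01 and 0.966 with ALX-5407. These ratios overlapped, so no difference between the changes of both genes was seen beyond the spread, and the log2 difference of -0.037 turned to 0.025 without Th1 replicate 3.

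The epsilon chain gene Cd3e (ENSMUSG00000032093), on the - strand at chr9:44998740-45009627, is the nearest gene of the complex to this pair. It encodes the chain that pairs with either gamma or delta and to which the activating antibody of the cultures binds. Its Th1 values were 182, 203 and 135 CPM, and its ALX-5407 values were 141, 155 and 147 CPM. Th1 replicates 1 and 2 were above all ALX-5407 libraries, whereas Th1 replicate 3 was below them all. The log2 fold change was -0.23 with a 95% interval from -0.46 to 0.0051 (edgeR adjusted p = 0.101), which did not pass. Without Th1 replicate 3, it was -0.39 (edgeR adjusted p = 0.000186), and without Th1 replicate 2, the highest library, it was -0.11 (edgeR adjusted p = 0.438), which are the extremes of the 15 alternatives. It passed in 5 of these, the others being with upper quartile scaling (adjusted p = 0.0458), without a filter on low counts (0.0242), with protein-coding genes alone (0.0437) and with a replicate block (0.0476), all from edgeR. Of its exon bases, 3.31% are shared with the antisense gene Gm48719, which had 63 to 161 counts.

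The windows of 250 bases before the annotated starts are shown for the CD3 chains, since Cd3g and Cd3d are neighbours whose transcripts fell alike. They come from the RefSeq promoter table (GRCm38.p6), in which 8 of the 9 members have an entry. Starts are those of RefSeq, and the last bases of the Cd3e window lie inside the gene as drawn by GENCODE. Capitals mark matches, on either strand, to an E-box (CAGNTG), an ETS core (GGAAGT), a RUNX motif (TGTGGT), a GC box (GGGCGG) or a TATA box (TATAAA), none of which overlap in these windows.
Cd3g, chr9:44980432-44980681, - strand: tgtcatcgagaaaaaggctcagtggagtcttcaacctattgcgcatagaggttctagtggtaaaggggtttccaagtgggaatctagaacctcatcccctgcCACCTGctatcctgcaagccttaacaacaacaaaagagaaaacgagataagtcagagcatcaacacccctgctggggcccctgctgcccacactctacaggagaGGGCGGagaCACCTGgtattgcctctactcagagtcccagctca
Cd3d, chr9:44981536-44981785, + strand: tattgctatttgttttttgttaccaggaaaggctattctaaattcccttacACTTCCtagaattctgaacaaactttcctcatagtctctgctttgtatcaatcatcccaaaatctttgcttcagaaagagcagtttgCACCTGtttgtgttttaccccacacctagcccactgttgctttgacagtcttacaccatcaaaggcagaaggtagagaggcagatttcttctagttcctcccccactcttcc
Cd3e, chr9:45009612-45009861, - strand: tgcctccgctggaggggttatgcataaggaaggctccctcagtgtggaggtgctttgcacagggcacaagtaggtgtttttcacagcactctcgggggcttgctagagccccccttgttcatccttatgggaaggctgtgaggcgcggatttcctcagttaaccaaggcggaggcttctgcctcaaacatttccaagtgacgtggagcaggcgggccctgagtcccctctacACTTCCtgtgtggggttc
Cd247, chr1:165788431-165788680, + strand: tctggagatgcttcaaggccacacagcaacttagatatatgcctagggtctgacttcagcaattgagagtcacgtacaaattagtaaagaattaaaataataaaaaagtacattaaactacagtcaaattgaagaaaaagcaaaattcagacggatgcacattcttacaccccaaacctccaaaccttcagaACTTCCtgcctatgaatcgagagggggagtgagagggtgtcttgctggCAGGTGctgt
Of 32851 promoter windows of this length, 44.8% hold the E-box, 19.7% the ETS core, 14% the RUNX motif, 32.7% the GC box and 12.4% the TATA box. Cd3g has 2 E-boxes and 1 GC box, Cd3d has 1 E-box and 1 ETS core, Cd3e has 1 ETS core, and Cd247 has 1 E-box and 1 ETS core. A match describes the letters and is not a bound site, and the motifs were chosen with the expression values known.

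Cd247 (ENSMUSG00000005763), on the + strand at chr1:165788681-165877277, encodes the zeta chain, which forms a dimer with the largest number of tyrosine motifs in the complex. It had 185, 179 and 168 CPM in Th1 cells and 186, 186 and 179 CPM with ALX-5407. The ranges overlapped. Its log2 fold change was 0.049 with an interval from -0.098 to 0.20 (edgeR adjusted p = 0.596), and it turned to -0.0043 with upper quartile scaling. Its counts carry a further limit, since 60.3% of its exon bases are shared with other genes, mostly with Pou2f1 on the opposite strand. Pou2f1, which encodes the transcription factor Oct1, had 1498 to 2125 counts, and the use of strand in the counting is not stated, so reads of both genes may have been dropped or mixed. The ratio of Cd3g to Cd247 counts was 1.24, 1.26 and 1.41 in Th1 cells and 1.01, 1.00 and 0.945 with ALX-5407. This ratio was lower in each ALX-5407 library than in each Th1 library, by 0.40 on the log2 scale.

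The antigen-binding chains of the receptor itself are read from the constant segments. Trac, the constant segment of the alpha chain, had means of 269.6 ± 14.8 and 271 ± 7.36 CPM (SD, n = 3 each) and a log2 fold change of 0.0070 (edgeR adjusted p = 0.947) whose sign turned in several alternatives. The beta chain segments were lower, Trbc1 by a log2 fold change of -0.19 (edgeR adjusted p = 0.0343) and Trbc2 by -0.30 (edgeR adjusted p = 0.0143). Both are near-identical in sequence, so reads may be shared between them. The call of Trbc1 was lost without Th1 replicate 3 (adjusted p = 0.0524) or any ALX-5407 replicate (0.0644, 0.131 and 0.110 in the order of the replicates) as well as with total counts as the only scaling (0.143) and without a filter on low counts (0.0664). Its log2 fold change in these fits was -0.16 without Th1 replicate 3 and -0.21, -0.18 and -0.17 without the ALX-5407 replicates. It was -0.14 with total counts and -0.18 without the filter. For Trbc2 the call was lost without ALX-5407 replicate 3, where the log2 fold change was -0.19 (adjusted p = 0.0953), all from edgeR.

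Reads on the variable segments were few. The Trav segments held 1891 to 2692 counts in a library and the Trbv segments 3642 to 5102, against 51 to 86 for 7 gamma segments and 18 to 27 for 5 Trdv segments of gamma-delta receptors. Trbv1 took 12.8%, 11.7% and 12.2% of the Trbv counts in Th1 cells and 14.6%, 16.7% and 15.5% with ALX-5407. Each ALX-5407 share was above each Th1 share, while the Wilson 95% intervals, which cover counting error only, ran from 10.7% to 13.8% over the Th1 libraries and from 13.7% to 17.7% over the others. Trbv3 took 10.6%, 12.5% and 13.7% in Th1 cells and 15.3%, 14.3% and 14.9% with ALX-5407, with intervals from 9.68% to 14.7% and from 13.3% to 16.3%. Among Trav segments, many of which have close copies, Trav7-4 and Trav9-1 had the most counts. Trav7-4 took 5.30%, 3.07% and 4.05% of the Trav counts in Th1 cells and 5.45%, 4.16% and 5.36% with ALX-5407, and Trav9-1 took 4.16%, 3.54% and 5.06% against 3.63%, 3.68% and 5.53%. For both Trav segments the groups overlapped. The shares were not tested, and they describe the segments with the most counts. In the test of levels among all genes, Trbv1 had a log2 fold change of 0.41 (edgeR adjusted p = 0.00778) and Trbv3 of 0.32 (edgeR adjusted p = 0.0583). The call of Trbv1 was lost without Th1 replicate 2 (edgeR adjusted p = 0.0556). Of 17 Trbv segments with a mean of at least 50 counts, 1 was higher and 1 lower at an edgeR adjusted p under 0.05, and of 15 such Trav segments 0 were, beside 24.5% and 23.2% of all genes tested. For Trav the count was also 0 at an unadjusted p under 0.05 in edgeR, DESeq2 and limma-voom. For Trbv the count depended on the tool. At an adjusted p under 0.05, DESeq2 had 1 higher and 1 lower, and limma-voom had 2 and 1. At an unadjusted p under 0.05, edgeR and DESeq2 had 2 and 2, and limma-voom had 2 and 1.

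Cd4 (ENSMUSG00000023274), on the - strand at chr6:124864692-124888221, encodes the coreceptor that binds MHC class II and carries Lck at its tail. Its values were 663, 703 and 571 CPM in Th1 cells and 468, 481 and 459.9 CPM with ALX-5407. All ALX-5407 libraries were below all Th1 libraries and close to each other, and Th1 replicate 3 was the lowest of its group. The mean went from 646 ± 67.4 to 469.7 ± 10.8 CPM (SD, n = 3 each), and the log2 fold change was -0.46 (standard error 0.0797, edgeR adjusted p = 0.000174). No gene overlaps Cd4 in the annotation.

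Lck (ENSMUSG00000000409), the kinase that CD4 carries, lies on the - strand at chr4:129548344-129573641. It had 482, 442 and 480.1 CPM in Th1 cells and 470.3, 467 and 448 CPM with ALX-5407. The ALX-5407 values lay within the Th1 range. Its log2 fold change was -0.020 with an interval from -0.17 to 0.13 (edgeR adjusted p = 0.838), and it was 0.038 with total counts as the only scaling. The ratio of Cd4 to Lck counts was 1.38, 1.59 and 1.19 in Th1 cells and 0.995, 1.03 and 1.03 with ALX-5407. Each ALX-5407 ratio was below each Th1 ratio, by 0.43 on the log2 scale.

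Zap70 (ENSMUSG00000026117), on the + strand at chr1:36761798-36782818, encodes the kinase recruited to the phosphorylated CD3 and zeta chains. It had 376, 327 and 353 CPM in Th1 cells and 274, 267 and 249 CPM with ALX-5407. The groups were separate, with a gap between the lowest Th1 and the highest ALX-5407 library that was wider than the range of either ALX-5407 or Th1 libraries. Its mean went from 352 ± 24.7 to 263 ± 13.0 CPM (SD, n = 3 each) with a log2 fold change of -0.42 (standard error 0.0747, edgeR adjusted p = 0.000218). Against Lck, which phosphorylates it, the ratio of counts was 0.781, 0.740 and 0.735 in Th1 cells and 0.582, 0.572 and 0.556 with ALX-5407. Against Cd247, whose product it binds, the ratio was 2.03, 1.83 and 2.10 in Th1 cells and 1.47, 1.44 and 1.39 with ALX-5407. Both ratios were lower in each ALX-5407 library than in each Th1 library.

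**Figure D2:**
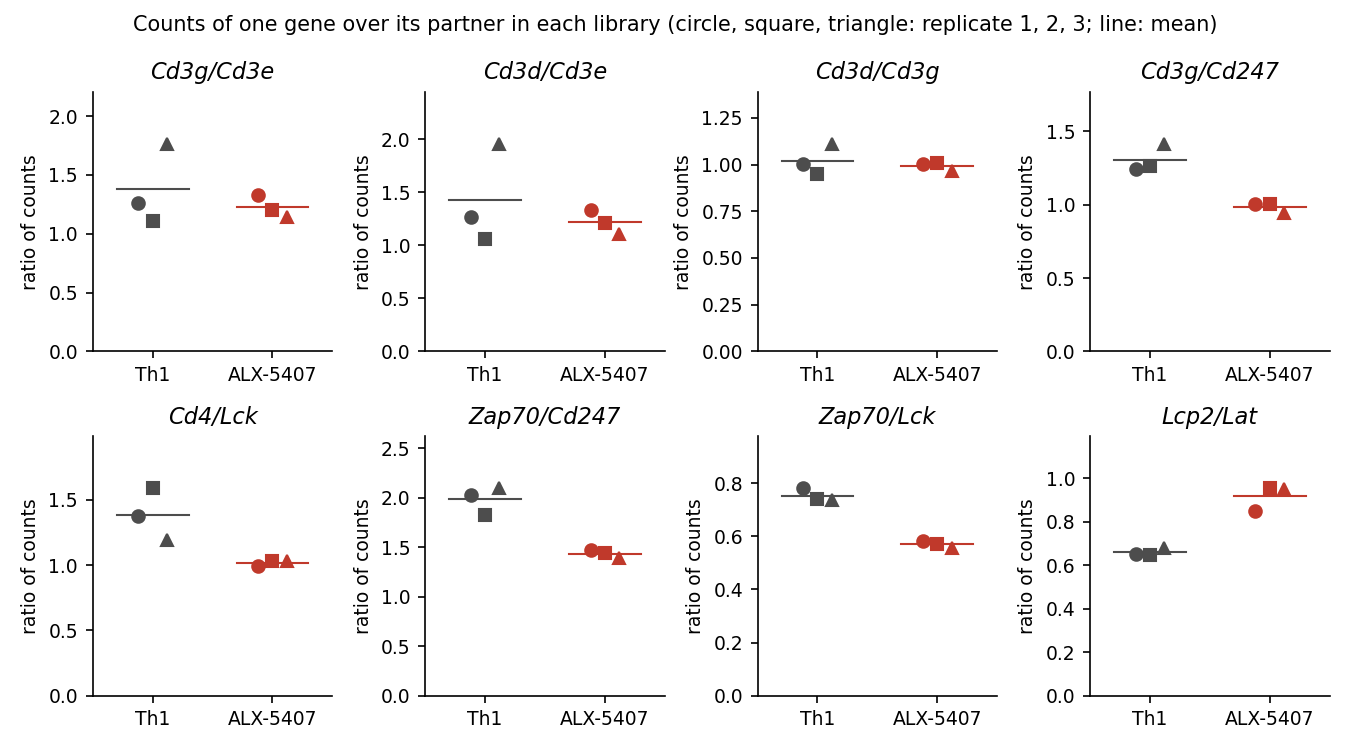
Ratio of the counts of a gene to those of a partner in each library (axes from 0), for 8 pairs of genes, with the mean of each group as a line. The groups are separate for Cd3g/Cd247, Cd4/Lck, Zap70/Cd247, Zap70/Lck and Lcp2/Lat and overlap for Cd3g/Cd3e, Cd3d/Cd3e and Cd3d/Cd3g, where Th1 replicate 3 is the highest point.

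The pairs were chosen for the known contacts of their products after the values of the genes were seen, so the ratios are descriptions and have no test. For Cd3g and Cd3e, whose products form a dimer, the ratio was 1.27, 1.11 and 1.76 in Th1 cells and 1.33, 1.20 and 1.15 with ALX-5407, so the groups overlapped. The log2 difference of this ratio was -0.15, going to 0.044 without Th1 replicate 3 and to -0.29 without Th1 replicate 2, and that of Cd3d to Cd3e was -0.18, going to 0.069 and -0.38.

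Of the adaptors, Lat did not pass and Lcp2 was the member that rose. Lat (ENSMUSG00000030742), on the - strand at chr7:126363824-126369570, encodes the membrane scaffold that Zap70 phosphorylates. It had 299, 315 and 257 CPM in Th1 cells and 319, 296 and 288 CPM with ALX-5407. These ranges overlapped, and the log2 fold change was 0.052 with an interval from -0.12 to 0.23 (edgeR adjusted p = 0.637), turning to -0.00087 with upper quartile scaling.

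Lcp2 (ENSMUSG00000002699), on the + strand at chr11:34046920-34092295, encodes SLP76, the cytosolic adaptor that is bridged to Lat. Its values were 195, 204 and 174 CPM in Th1 cells and 270.5, 282 and 273 CPM with ALX-5407. Each ALX-5407 library was above each Th1 library, and the ALX-5407 libraries were close to each other. The means were 191 ± 15.4 and 275 ± 5.96 CPM (SD, n = 3 each), which is a 1.44-fold increase with a log2 fold change of 0.53 (standard error 0.0744, edgeR adjusted p = 2.35e-05). Of its exon bases, 6.32% are shared with 4930469K13Rik on the opposite strand, which had at most 38 counts. The ratio of Lcp2 to Lat counts was 0.652, 0.646 and 0.677 in Th1 cells and 0.847, 0.953 and 0.947 with ALX-5407, which was higher in each ALX-5407 library. The bridge between both adaptors is Grap2 (GADS), which rose from 216 ± 7.87 to 303 ± 8.24 CPM (SD, n = 3 each) with a log2 fold change of 0.48 (edgeR adjusted p = 2.41e-05).

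**Figure D3:**
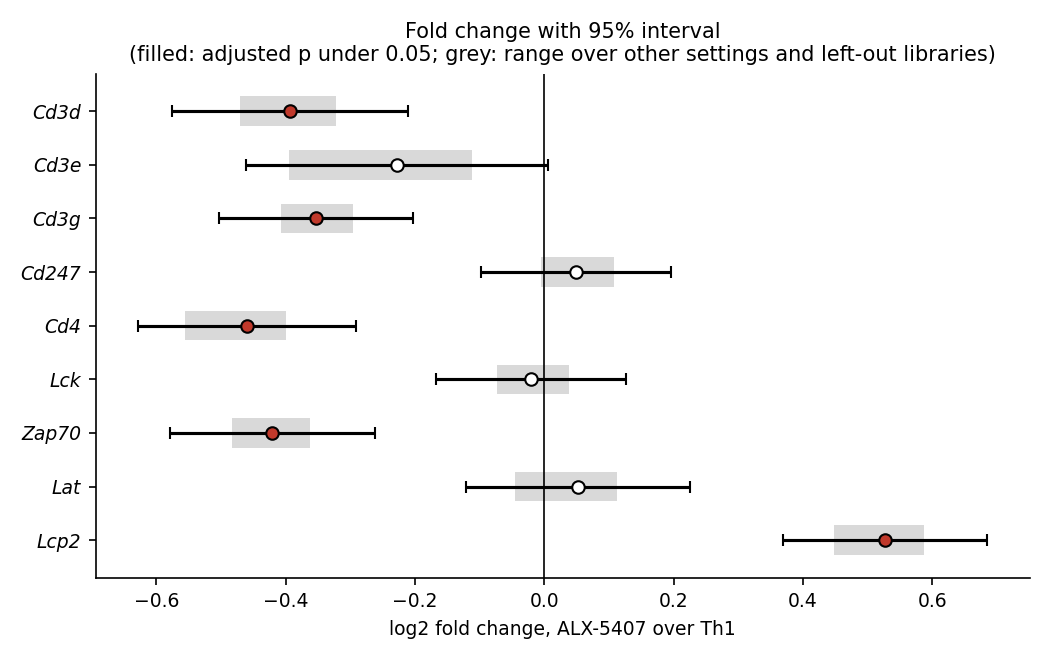
Log2 fold change (ALX-5407 over Th1) of each of the 9 genes with its 95% interval from edgeR, filled where the adjusted p is under 0.05, over a grey band that spans 9 other settings and 6 fits that each leave out a library. The bands of Cd3d, Cd3g, Cd4, Zap70 and Lcp2 stay on 1 side of 0, that of Cd3e stays below 0, and those of Cd247, Lck and Lat include 0.

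These fold changes are relative to the bulk of all genes. On the TPM scale, which divides by length before it scales, the median of all genes moved by 0.18 on the log2 scale, and each member moved with it. The log2 ratio of mean TPM was then -0.28 for Cd4, -0.24 for Zap70, -0.22 for Cd3d, -0.18 for Cd3g and 0.71 for Lcp2, beside 0.19 for the median gene, and the groups of Cd3d overlapped, unlike in CPM. It was 0.23 for Cd247 and for Lat, 0.16 for Lck and -0.044 for Cd3e on that scale. The groups of Cd247, Lck and Lat, which overlapped in CPM, were separate in TPM with ALX-5407 higher, by about as much as the median gene moved.

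Levels of different genes can be compared per length only. In RPKM, here the CPM per kilobase of the merged exons of a gene, Cd4 (160.1 ± 16.7) and Lck (159.8 ± 7.67) were the highest members in Th1 cells (SD, n = 3) and did not differ beyond their spread. Next in RPKM came Cd3d (130.2 ± 13.98), Zap70 (118 ± 8.25) and Lat (105 ± 11.0), neighbours in this order whose libraries overlapped. Cd3g had an RPKM of 70.7 ± 1.92, and Lcp2 (42.8 ± 3.45), Cd3e (42.5 ± 8.53) and Cd247 (33.3 ± 1.60) were the lowest, with overlap from each to the next. With ALX-5407, Lck (158 ± 4.20 RPKM) stood alone at the top, above Cd4 (116 ± 2.68 RPKM), and Lcp2 (61.7 ± 1.34 RPKM) moved above Cd3g (55.4 ± 3.18 RPKM) with no overlap.

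The order depends on the length used. Per kilobase of the longest principal transcript, a length chosen after the values were seen, Lat (235 ± 24.5), Cd3g (226 ± 6.14), Lck (214 ± 10.3) and Cd4 (208 ± 21.7) led in Th1 cells, and Lcp2 (52.4 ± 4.23) was the lowest (SD, n = 3). With ALX-5407, both statements on the order turned with this length, as Lat (244 ± 13.2) was above Lck (211 ± 5.63) and Lcp2 (75.5 ± 1.63) was the lowest member, below Cd3g (177 ± 10.2). The merged exons of Cd3g cover 3269 bases and its principal transcript 1023. For Cd247, dividing the counts of the gene by only the 2116 exon bases that no other gene shares, as if no read from shared bases had been counted, gave 83.9 ± 4.03 CPM per kilobase in Th1 cells in place of 33.3 ± 1.60. The direction of a change between the groups is the same for any of these lengths.

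**Figure D4:**
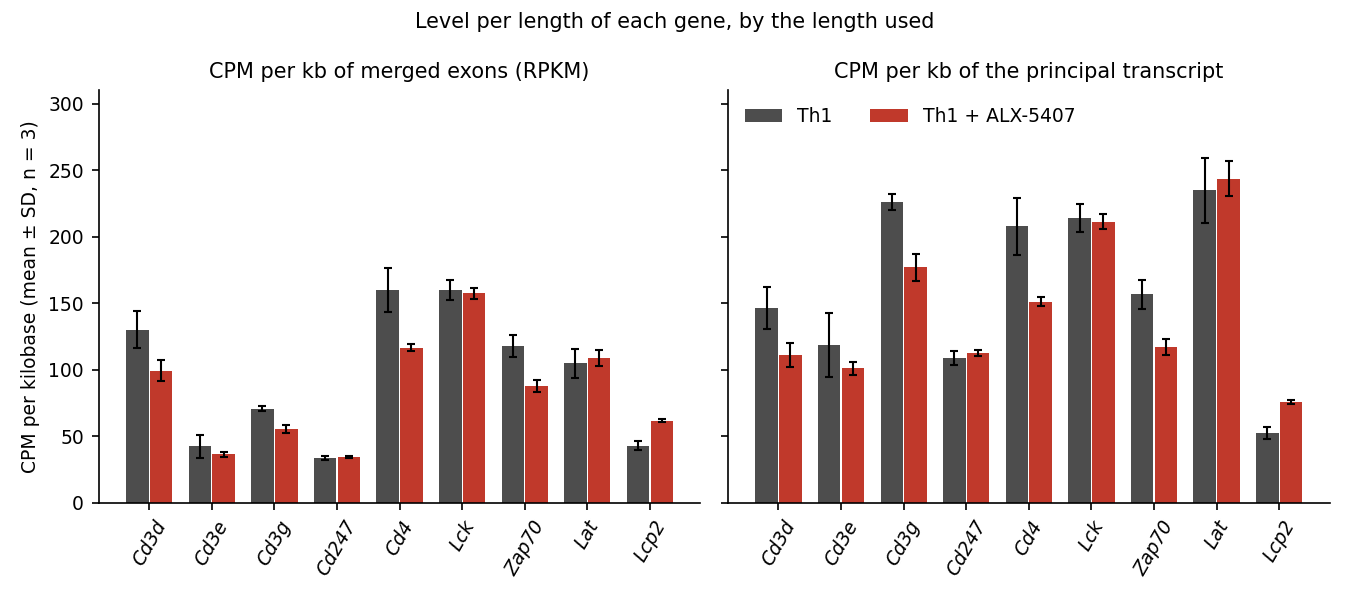
Level of each gene per kilobase (mean and SD, n = 3, bars from 0) in Th1 libraries (grey) and ALX-5407 libraries (red), per kilobase of merged exons on the left and of the longest principal transcript on the right. Cd4 and Lck lead on the left in Th1 libraries, while Lat, Cd3g, Lck and Cd4 lead on the right.

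Beyond the members, 7 lists held 92 other genes of T cell receptor signalling, of which 91 were tested. At an adjusted p under 0.05, 33 (36.3%) of them were higher and 27 (29.7%) were lower, beside 24.5% and 23.2% of all genes tested, and their median log2 fold change was 0.065. Most lists held genes called in both directions.

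The list of other proximal kinases had 3 of 7 genes higher and 2 lower, with a median of 0.10. Txk, a kinase of the Tec family, fell from 81.9 ± 1.55 to 36.1 ± 3.84 CPM (SD, n = 3 each) with a log2 fold change of -1.18 (edgeR adjusted p = 1.73e-08), and Tec had -0.51 (edgeR adjusted p = 0.000293). Csk, the kinase that places the inhibitory phosphate on Lck, rose by 0.35 on the log2 scale (edgeR adjusted p = 0.000570). Map4k1, the kinase HPK1 that restrains SLP76, rose by 0.39. Syk, the relative of Zap70 used mainly by B cells, rose by 0.86 from a low level of 3.93 ± 0.179 to 7.13 ± 0.747 CPM. Summed over 10 B cell markers, led by Cd22, the level was 15.4, 15.9 and 13.6 CPM in Th1 libraries. With ALX-5407 it was 21.9, 19.8 and 20.9 CPM. Of these markers 4 were higher and 1 lower, beside 24.5% and 23.2% of all genes tested, and the others were not called. Fcer2a was the lower one, with a log2 fold change of -1.03 (edgeR adjusted p = 0.0111). Cd79b, among those not called, had 0.0050 (edgeR adjusted p = 0.991). Fcer2a and Cd79b were named after their values were seen. The part of these markers in the rise of Syk was not tested.

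Among other adaptors and scaffolds, 7 of 16 were higher and 6 lower, with a median of 0.13. Beside Grap2, Trat1 (the adaptor TRIM) rose by 1.01 and Crkl by 0.55 on the log2 scale. Fyb, which encodes the SLP76 partner ADAP, went from 295 ± 33.4 to 153 ± 2.16 CPM (SD, n = 3 each) with a log2 fold change of -0.94 (edgeR adjusted p = 1.45e-07). Grap, a relative of Grb2, had -0.77 and Nck2, which binds SLP76 and CD3 epsilon, had -0.58.

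The list of phosphatases at the receptor had the lowest median of the 7 lists, at -0.29, with 6 of 10 genes lower and 1 higher. It includes Ptprcap, which encodes a partner of the phosphatase CD45 and not a phosphatase. Ptprcap had a log2 fold change of -0.0071 (edgeR adjusted p = 0.956) and was named after its values were seen. Ptprc, which encodes CD45, the phosphatase that keeps Lck active, stood at 1642 ± 114 and 1712 ± 126 CPM (edgeR adjusted p = 0.559) and was named after its values were seen. Ptpn2, which dephosphorylates Lck and JAK kinases, fell from 229.9 ± 8.66 to 137 ± 2.76 CPM (SD, n = 3 each) with a log2 fold change of -0.75 (edgeR adjusted p = 2.4e-07). Acp1 had -0.75 and Ptprj -0.44, and Ptpn11 rose by 0.21 (edgeR adjusted p = 0.0265), a call that was lost with upper quartile scaling (0.0848), with protein-coding genes alone (0.0678) and without any of 5 libraries, Th1 replicate 2 being the exception. The log2 fold change of Ptpn11 was 0.13 without Th1 replicate 3, and 0.20 to 0.23 without Th1 replicate 1 or any ALX-5407 replicate. It was 0.16 with upper quartile scaling and 0.17 with protein-coding genes alone.

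Among inhibitory adaptors and ligases, 6 of 19 tested were higher and 7 lower, with a median of 0.067. Pag1, the membrane adaptor that brings the Lck inhibitor Csk to the membrane, rose from 27.1 ± 1.76 to 58.1 ± 3.81 CPM (SD, n = 3 each) with a log2 fold change of 1.10 (edgeR adjusted p = 4.53e-08). The ubiquitin ligase genes diverged, with Cblb falling from 500 ± 42.6 to 279 ± 7.49 CPM (log2 fold change -0.84, edgeR adjusted p = 2.27e-07) and Cbl rising by 0.49. Ubash3a, a phosphatase-like gene, rose by 0.44, and Dgka, which removes diacylglycerol, had -0.53. Tespa1 had -1.09, but this gene is known to promote receptor signalling in thymocytes, unlike the name of its list.

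In the phospholipase C gamma, Ras and Vav branch, 7 of 18 were higher and 2 lower, with a median of 0.050. Plcg1, the enzyme that the Lat and Lcp2 assembly activates, went from 338 ± 14.98 to 237 ± 9.76 CPM (SD, n = 3 each) with a log2 fold change of -0.51 (edgeR adjusted p = 1.82e-05). Rasgrp1, which couples diacylglycerol to Ras, rose from 139 ± 1.39 to 239.7 ± 16.2 CPM (log2 fold change 0.78, edgeR adjusted p = 2.7e-07). Vav3 rose by 1.07 from a low level of 10.6 ± 0.103 CPM and Dock2 by 0.58, while Rhoh had -0.30.

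The calcium and calcineurin branch had 9 of 18 higher and 2 lower, with a median of 0.20. Nfatc1, which encodes the transcription factor NFAT2 that calcineurin releases to the nucleus, rose from 90.7 ± 6.88 to 176 ± 3.25 CPM (SD, n = 3 each) with a log2 fold change of 0.96 (edgeR adjusted p = 4.66e-08). Ppp3ca, a catalytic subunit of calcineurin, rose by 1.24 from a low level of 14.2 ± 1.99 CPM, and its regulatory subunit Ppp3r1 went from 144 ± 5.11 to 93.3 ± 1.92 CPM with -0.63 (edgeR adjusted p = 1.74e-06). The receptors for inositol trisphosphate also diverged, with Itpr2 rising by 0.87 and Itpr1 at -0.48.

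**Figure D5:**
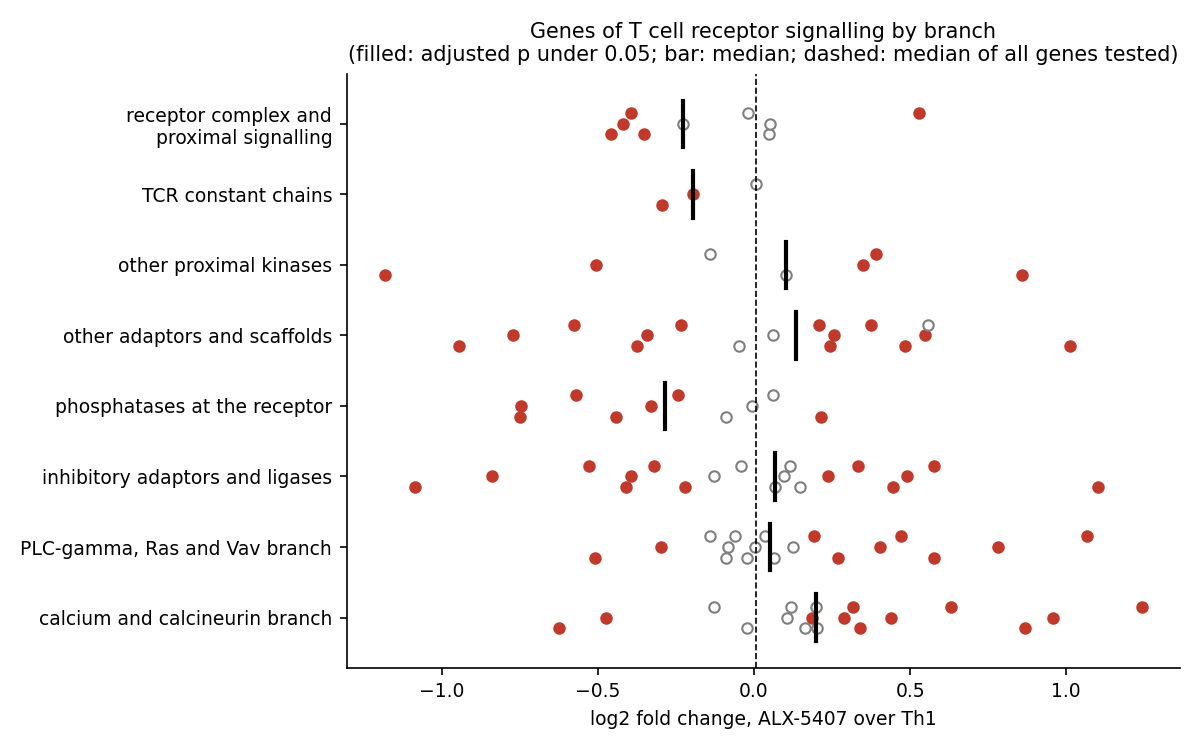
Log2 fold change (ALX-5407 over Th1) of each tested gene by branch of T cell receptor signalling, filled where the edgeR adjusted p is under 0.05, with the median of each list (bar) and of all genes tested (dashed line). Most lists hold filled points on both sides of 0, and medians run from -0.29 for the phosphatase list to 0.20 for the calcium and calcineurin branch.

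For each called member, the gene with the most similar pattern was sought among 8898 genes with a mean of at least 10 CPM, by the root mean square difference in log2 CPM after centring over the 6 libraries. The nearest were Sdhd for Cd3g (0.0213), Aurkaip1 for Cd3d (0.0335), Max for Cd4 (0.0166), Neurl4 for Zap70 (0.0267) and Stk40 for Lcp2 (0.0257). Over 6 libraries such likeness describes the pattern and says nothing of shared control.

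Markers of other cells were low in these libraries, apart from Ly6g, which stood at 69.8 to 75.3 CPM in Th1 libraries. Summed over 2 CD8 T cell genes, led by Cd8b1, the level was 9.40, 9.25 and 9.59 CPM in Th1 libraries and 6.71, 7.56 and 8.87 CPM with ALX-5407, and Cd8a had a log2 fold change of -0.80 (edgeR adjusted p = 0.0111), a call lost without ALX-5407 replicate 1 (edgeR adjusted p = 0.0556). Cd8b1 had -0.0070 (edgeR adjusted p = 0.976), so the fall of the sum was in Cd8a. The 4 gamma-delta T cell genes, led by Tcrg-C2, summed to 11.5 to 14.9 CPM with 1 higher. The 7 NK cell genes, led by Klra7, summed to 8.57, 8.42 and 8.38 CPM in Th1 libraries and 9.06, 10.4 and 11.2 CPM with ALX-5407, with 1 higher and 1 lower. Klra7 had a log2 fold change of 0.030 (edgeR adjusted p = 0.926), while Eomes rose by 1.05 (edgeR adjusted p = 0.000485). Klri2 had -1.31 (edgeR adjusted p = 0.00687). Only 3 of the 7 NK cell genes passed the filter on low counts. Ncr1, Klrb1c, Klra8 and Klra4 did not, with at most 9 counts in a library. All NK cell genes other than Klra7 were named after their values were seen. Of the 10 macrophage or monocyte genes, C1qa, C1qb and Marco had no count, and Cd68, which made up most of the list, led a fall from 19.8, 21.1 and 15.2 CPM to 5.21, 5.95 and 6.42 CPM. Of the 7 granulocyte genes, S100a8, S100a9, Elane and Retnlg had no count, while Ly6g alone carried the list from 71.3, 75.3 and 69.9 CPM to 31.6, 24.2 and 25.3 CPM. The 7 dendritic cell genes, led by Zbtb46, with Siglech and Cd209a at 0, summed to 4.05, 4.78 and 4.87 CPM in Th1 libraries and 3.51, 3.73 and 3.05 CPM with ALX-5407, and the 5 erythroid genes, led by Alas2, summed to 0.428 to 0.910 CPM. The 6 Th1 genes, led by Il12rb2, summed to 823, 776 and 814 CPM in Th1 libraries and 771, 743 and 772 CPM with ALX-5407. The part of these markers in the changes of the 9 members was not tested, and the largest of their summed levels outside the Th1 list, 75.3 CPM for the granulocyte list, came from Ly6g.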

How the data were processed

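The authors deposited counts, the number of reads per gene in each library, without normalization. The submitters' processing notes name fastp, HISAT2 2.0.5, featureCounts 1.5.0-p3 and the mm10 genome; use of strand and of reads with several hits is not given in the sources used here. The labels describe poly-T capture and the methods describe depletion of ribosomal RNA. The deposited gene length, in bases, covers merged exons. Groups and replicates follow the labels.

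Members and lists were chosen with earlier results of these data known, and the lists do not hold every gene of the pathway: some were taken out after their values were seen, for reasons unrelated to the values. The table was fitted whole in edgeR 4.0.16 (R 4.3.3) with filterByExpr (minimum count 10, minimum total 15), TMM factors, the quasi-likelihood F test (two-sided) and Benjamini-Hochberg adjustment over 15938 genes, after the procedure was tested on simulated counts. In that test, 55.8% of 95 genes given an absolute log2 fold change of 0.5 were called, and 88.5% of 96 given 1. Those genes were few among the 15955 tested there, whereas 24.5% and 23.2% of genes were called higher and lower in the data. The adjustment over all genes therefore differed, and these rates do not give the sensitivity of the main fit. The rate for genes with counts as high as those of the members was not tested. Standard errors are the log2 fold change over the square root of F. RPKM values are TMM-scaled CPM per kilobase. Exons and principal transcripts are from GENCODE M21. Replicates differed by more than sampling noise. An exact permutation test of 3 against 3 cannot go below p = 0.1.

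All 9 members were named, with the 3 TCR constant segments, the list genes of smallest p (up to 3 in each direction, and any past an absolute log2 fold change of 1), the most abundant marker of each list with Cd8a and, chosen after its values were seen, Tbx21, and the Trav and Trbv segments with the most counts. Others are said to be named after their values were seen. DESeq2 1.42.0, limma-voom (limma 3.58.1), other scalings and filters, a replicate block and each library left out were the alternatives.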

Additional observations from a re-analysis of the deposited data

How the results depend on the processing

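The calls of Cd3d, Cd3g, Cd4, Zap70 and Lcp2 held in all 15 alternatives, which were 9 other scalings, tests, filters and gene sets and 6 fits that each left out a library, with edgeR, DESeq2 or limma-voom adjusted p of at most 0.0121 (Cd3d without ALX-5407 replicate 3). The members numbered 1 higher and 4 or 5 lower throughout, the difference being Cd3e, and 0 and 0 with an absolute log2 fold change over 1. Other pathway genes numbered 28 to 39 higher and 22 to 29 lower. The TCR constant segments drop out where only protein-coding genes are kept.

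Values near 0 changed sign. With upper quartile scaling, Cd247 had -0.0043, Lat -0.00087 and Trac -0.046. With total counts as the only scaling, Lck had 0.038. Trac had -0.0064 in DESeq2, -0.0064 with its size factors and -0.014 with the filter at 1 CPM. Without Th1 replicate 3, Cd247 had -0.0043, Lat -0.045 and Trac -0.029. With a library left out, Cd247 ran from -0.0043 to 0.074, Lat from -0.045 to 0.10, Lck from -0.072 to 0.0076 and Trac from -0.029 to 0.041. The cause was not tested.

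Same-numbered cultures of both groups did not deviate together (correlations -0.0084, 0.0036 and 0.064 across genes), so they were not treated as paired. With a replicate block, all genes called numbered 4071 higher and 3833 lower, the members 1 and 5, and Cd3e had -0.21 (edgeR adjusted p = 0.0476). Genes such as Syk, Vav3 and Ppp3ca rest on fewer counts than the members, and the effect of depth was not tested.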
